A study of Rattus norvegicus with 24 samples.

Results

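Interferon-stimulated genes are switched on by interferons, the cytokines that announce viral or other nucleic acid and that activated T and NK cells also release. The set described here was a list of 42 genes, and its members were found by matching each gene symbol to the annotation of the array features. In all, 38 of the 42 were measured, among 19239 features on each of 24 arrays. The symbols Ifnar2, Oas2, Eif2ak2 and Xaf1 matched no named feature and were not analysed here.

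The arrays measured RNA of whole right lung from adult male Wistar rats, 6 rats in each of 4 groups, and asked whether lung-protective ventilation changes the response of the lung to massive brain damage. In the BD HVT/LPEEP group, rats had brain damage (BD) and were ventilated with a high tidal volume of 12 mL/kg and a low positive end-expiratory pressure (PEEP), which the labels call HT. In the BD LVT/OLPEEP group, rats had brain damage and received a low tidal volume of 6 mL/kg with PEEP set at the lowest static elastance of the respiratory system, which the labels call best PEEP. The NBD HVT/LPEEP and NBD LVT/OLPEEP groups received the same settings without brain damage (NBD). The injury was acute and mechanical, made by filling a small balloon between skull and dura through a burr hole. NBD rats had neither hole nor balloon, so BD and NBD rats also differ by this surgery. All groups shared ketamine and xylazine anaesthesia, tracheotomy and ventilation planned for 6 h, so no group was unventilated. Of the 6 BD HVT/LPEEP rats, 2 had died before the end of the protocol, and the labels do not say which. In whole lung, more cells of a type and more RNA per cell cannot be told apart. Rats are named below by the replicate number in their labels.

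Type I interferon signals through a receptor of IFNAR chains to STAT2 and IRF9, which bind the interferon-stimulated response element (ISRE). Interferon gamma signals through IFNGR1 and IFNGR2 and acts on genes that carry the gamma-activated site (GAS). The genes downstream encode sensors of foreign nucleic acid, proteins that block viral replication, the ubiquitin-like modifier ISG15 with its enzymes, and guanylate-binding proteins that attack intracellular pathogens, and many genes answer to both kinds of interferon.

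Promoters are shown for members called between BD and NBD rats under HVT/LPEEP, namely the 6 with the smallest adjusted p among those whose matched promoter holds an ISRE or GAS sequence, and Ifngr1, the first of those without. These elements are how interferon-driven factors are known to reach such genes. Each run is the 200 bases before the RefSeq transcription start on build GRCr8, written 5′ to 3′ on the strand of the gene. Capitals mark an ISRE match (GAAA, any 2 bases and GAAA again, or TTTC, any 2 bases and TTTC where it lies on the other strand) or a GAS match (TTCNNNGAA, which reads the same on both strands).
Irf1, chr10:38417735-38417934, plus strand: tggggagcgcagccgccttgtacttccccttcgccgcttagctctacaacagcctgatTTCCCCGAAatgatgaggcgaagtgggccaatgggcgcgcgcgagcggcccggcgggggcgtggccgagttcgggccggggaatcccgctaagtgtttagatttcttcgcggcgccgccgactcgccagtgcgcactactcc
Parp14, chr11:78407934-78408133, plus strand: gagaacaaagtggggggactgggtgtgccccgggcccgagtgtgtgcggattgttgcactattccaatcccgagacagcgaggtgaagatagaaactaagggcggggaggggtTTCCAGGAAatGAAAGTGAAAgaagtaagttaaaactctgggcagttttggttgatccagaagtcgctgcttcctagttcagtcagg
Ifit3, chr1:241527126-241527325, plus strand: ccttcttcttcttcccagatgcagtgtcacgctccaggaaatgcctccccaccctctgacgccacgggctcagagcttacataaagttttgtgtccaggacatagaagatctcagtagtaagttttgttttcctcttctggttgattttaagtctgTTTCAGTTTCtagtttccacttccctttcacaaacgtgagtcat
Irf8, chr19:65699084-65699283, plus strand: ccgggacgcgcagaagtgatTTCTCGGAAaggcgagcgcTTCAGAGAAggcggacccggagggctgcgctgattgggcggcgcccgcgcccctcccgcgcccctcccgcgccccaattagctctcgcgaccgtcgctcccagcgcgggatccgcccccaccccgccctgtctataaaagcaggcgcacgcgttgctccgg
Gbp2, chr2:234005527-234005726, plus strand: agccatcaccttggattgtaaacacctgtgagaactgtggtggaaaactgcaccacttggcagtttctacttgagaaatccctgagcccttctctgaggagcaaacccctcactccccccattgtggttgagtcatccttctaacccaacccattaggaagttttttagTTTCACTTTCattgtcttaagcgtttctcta
Ifih1, chr3:67683969-67684168, minus strand: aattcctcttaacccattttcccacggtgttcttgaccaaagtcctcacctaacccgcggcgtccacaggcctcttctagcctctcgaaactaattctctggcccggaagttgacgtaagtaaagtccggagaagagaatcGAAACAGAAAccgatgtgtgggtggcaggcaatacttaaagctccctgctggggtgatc
Ifngr1, chr1:16152710-16152909, plus strand: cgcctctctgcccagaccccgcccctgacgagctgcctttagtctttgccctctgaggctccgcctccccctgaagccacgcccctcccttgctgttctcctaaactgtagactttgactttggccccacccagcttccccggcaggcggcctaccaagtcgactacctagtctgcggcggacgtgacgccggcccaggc
Parp14 has both sequences and Ifngr1 has neither, as is also the case for Ifngr2, Ifi35, Trex1 and Parp9, so that 8 of 12 matched members called higher hold at least 1 of them. A promoter of 300 bases (250 before and 50 after the start) was matched for 29 of the 38 members. An ISRE match lay in 14 of the 29 (48.3%), against 3.92% of 33469 rat promoters of that length, and a GAS match in 7 (24.1%), against 8.87%. An ISRE match lay in 6 of 12 members called higher in BD than in NBD rats under HVT/LPEEP and in 8 of 16 members not called. Several members lie side by side on the same build. Ifit2 and Ifit3, Ifnar1 and Ifngr2, Rsad2 and Cmpk2, Parp9 and Dtx3l, and Dtx3l and Parp14 are direct neighbours among coding genes.

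Values are log2 intensities, quantile-normalised by the authors, with a median of 9.18 on every array, and a difference of 1 is a doubling. In every comparison, limma was fitted to all 19239 features of the 24 arrays, and a feature is called when its p, adjusted over all features by the Benjamini-Hochberg method, is under 0.05. Labelled lung was borne out by its defining markers, since surfactant genes such as Sftpc (mean 14.32) were among the brightest features. The correlation of an array with the other arrays of its group averaged 0.951 to 0.988, the lowest being NBD HVT/LPEEP rat 12. BD LVT/OLPEEP rat 16 carried skeletal muscle RNA (mean deviation of 10 muscle genes 3.74, against -0.326 to 0.214 in the other 23 rats). Without both of these rats, a choice made after seeing the data, the counts of members called below were 1 in place of 2 and 15 in place of 17. The shares of all features called were then 7.4% in place of 5.67% and 16.5% in place of 14.4%.

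Under HVT/LPEEP, interferon-stimulated genes stood higher in BD than in NBD lungs. Of the 38 members, 16 rose and 1 fell, with the largest called rises in Rsad2 (3.67-fold), Ifit2 (3.14-fold) and Isg15 (2.78-fold). The called share was 44.7%, while 14.4% of all features were called in this comparison. In the upward direction, 16 of 38 members stand against 5.90% of all features, and in the downward direction 1 of 38 against 8.50%. The median difference of the 38 members was 0.832 on the log2 scale, against -0.0121 over all features, and 35 of the 38 were positive. In no member did all 6 BD HVT/LPEEP rats lie above all 6 NBD HVT/LPEEP rats, a separation seen upward in 1.85% of all features.

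**Figure D1:**
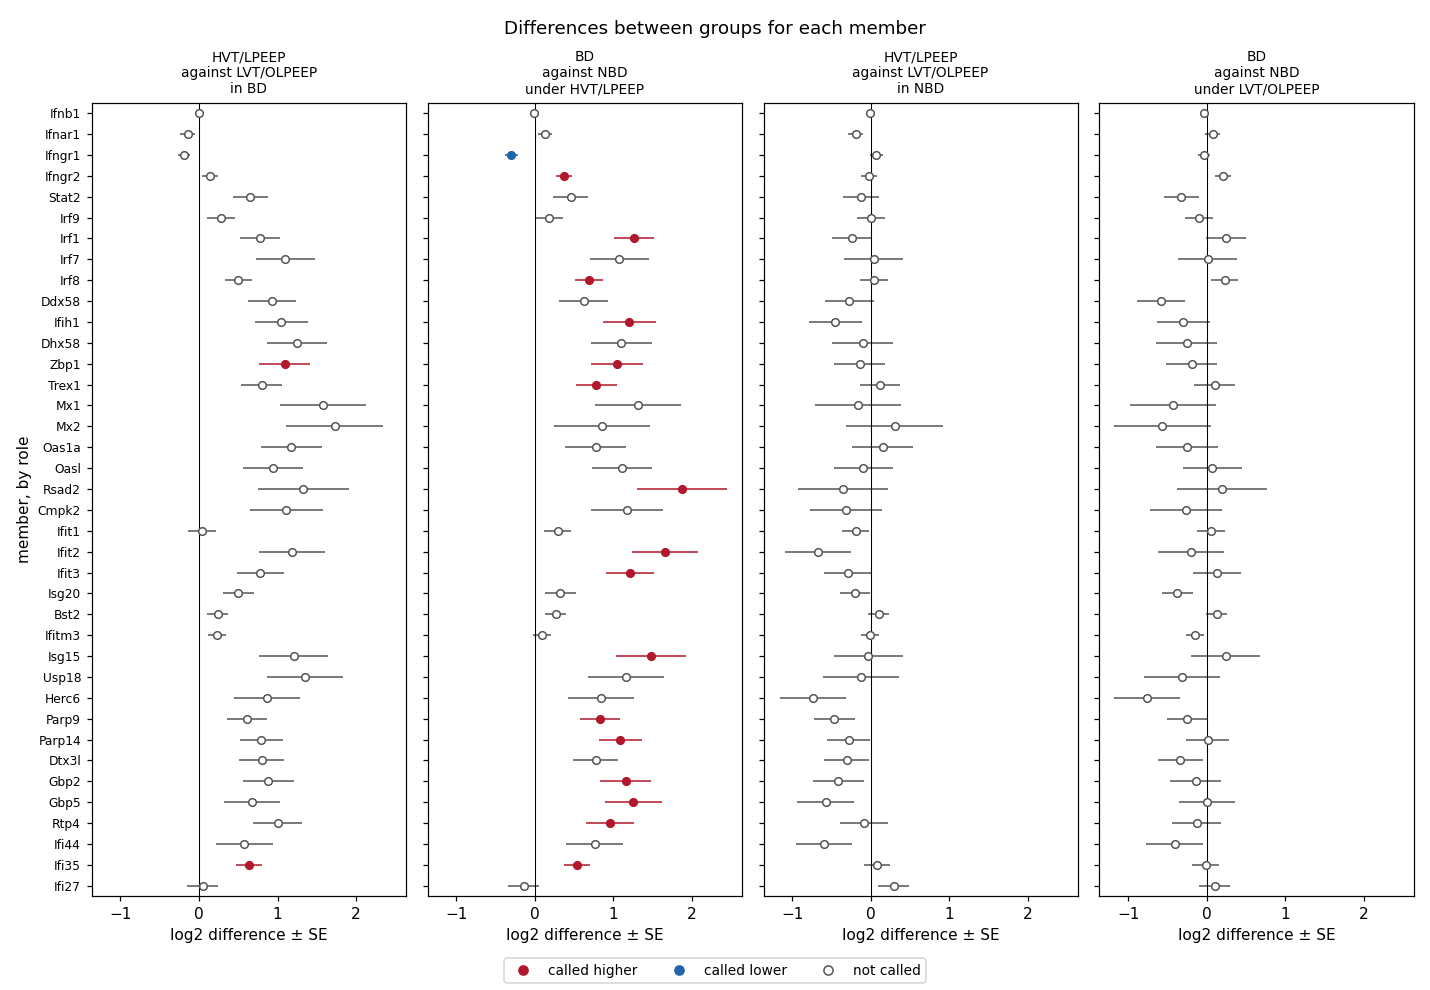
Log2 difference ± SE (x axis) of each of the 38 members (rows, ordered by role) in 4 comparisons, from limma on 24 arrays. Filled red marks members called higher, filled blue members called lower and open circles members not called. The second panel holds 16 red and 1 blue member, the first 2 red, and the NBD and LVT/OLPEEP panels none.

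Among the interferon itself and the receptor chains, the differences were small. Ifnb1, the gene of interferon beta, averaged 7.81 ± 0.0869 in BD HVT/LPEEP lungs, 7.81 ± 0.0552 in BD LVT/OLPEEP lungs, 7.83 ± 0.0660 in NBD HVT/LPEEP lungs and 7.84 ± 0.0633 in NBD LVT/OLPEEP lungs (SD, n = 6 each). It lay dimmer than most features, above only 18.4% of them, and was not called between BD and NBD under HVT/LPEEP (difference -0.02, SE 0.0442, limma adjusted p = 0.861). Ifngr1, the ligand-binding chain of the interferon gamma receptor, ran from 12.36 over a median of 12.70 to 12.85 in BD HVT/LPEEP lungs and from 12.85 over 12.98 to 13.12 in NBD HVT/LPEEP lungs. It was the one member that fell (-0.30, SE 0.0803, limma adjusted p = 0.0147), and 5 of 6 BD HVT/LPEEP rats lay below every NBD HVT/LPEEP rat. Ifngr2, the signalling chain of the same receptor, had a lowest, median and highest value of 11.93, 12.01 and 12.12 in BD HVT/LPEEP lungs and of 11.41, 11.55 and 12.04 in NBD HVT/LPEEP lungs. It rose (0.37, SE 0.0996, limma adjusted p = 0.0148), and 2 of 6 BD rats lay above every NBD rat. Ifnar1, a chain of the type I interferon receptor, averaged 12.13 ± 0.116 in BD HVT/LPEEP lungs and 12.00 ± 0.211 in NBD HVT/LPEEP lungs and was not called.

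Of the 5 transcription factors, 2 rose. Irf1, a factor induced by interferon gamma that drives many of the other genes, had a lowest, median and highest value of 11.50, 12.50 and 13.10 in BD HVT/LPEEP lungs, 11.26, 11.79 and 12.19 in BD LVT/OLPEEP lungs, 10.58, 11.30 and 11.74 in NBD HVT/LPEEP lungs, and 11.04, 11.40 and 12.21 in NBD LVT/OLPEEP lungs. It had the smallest adjusted p of the 38 members between BD and NBD under HVT/LPEEP (1.26, SE 0.255, 2.40-fold, limma adjusted p = 0.00202). Under that setting 5 of 6 BD rats lay above every NBD rat, with BD rat 37 inside the NBD range. Irf8, a factor of myeloid and dendritic cells, ran from 11.18 over a median of 11.48 to 11.80 in BD HVT/LPEEP lungs and from 10.21 over 10.88 to 11.24 in NBD HVT/LPEEP lungs. It rose by 0.69 (SE 0.175, limma adjusted p = 0.0103), and 5 of 6 BD rats lay above every NBD rat. Here rat 28, not rat 37, was the lowest BD HVT/LPEEP rat. Irf7, the amplifier of type I interferon production, averaged 11.92 ± 0.842 in BD HVT/LPEEP lungs and 10.84 ± 0.319 in NBD HVT/LPEEP lungs (difference 1.08, limma adjusted p = 0.0578). Stat2 and Irf9, the partners that carry the type I signal to the ISRE, had differences of 0.46 (limma adjusted p = 0.19) and 0.18 (0.566), so neither was called.

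Of the 4 nucleic acid sensors and the nuclease Trex1, 3 rose. Ifih1, which encodes the double-stranded RNA sensor MDA5 and carries an ISRE match in the promoter printed above, had a lowest, median and highest value of 10.50, 11.99 and 13.01 in BD HVT/LPEEP lungs and of 10.09, 10.70 and 11.65 in NBD HVT/LPEEP lungs. The difference was 1.20 (SE 0.339, limma adjusted p = 0.0202), and 4 of 6 BD rats lay above every NBD rat. Zbp1, a sensor of Z-form nucleic acid that can start necroptosis, ran from 9.53 over a median of 10.70 to 12.05 in BD HVT/LPEEP lungs and from 9.14 over 9.74 to 10.15 in NBD HVT/LPEEP lungs. It rose 2.06-fold (limma adjusted p = 0.0336), with rat 37 again the one BD HVT/LPEEP rat within the NBD HVT/LPEEP range. Trex1, which degrades cytosolic DNA, rose 1.72-fold (0.78, SE 0.26, limma adjusted p = 0.0456). Ddx58, the gene of RIG-I, and Dhx58, its relative LGP2, had differences of 0.62 (limma adjusted p = 0.195) and 1.10 (0.0602).

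Of the 12 antiviral effectors, 3 rose and none fell. Ifit2, which binds viral RNA and blocks its translation, had a lowest, median and highest value of 10.55, 12.30 and 13.16 in BD HVT/LPEEP lungs, 10.73, 10.88 and 11.51 in BD LVT/OLPEEP lungs, 9.56, 10.55 and 11.90 in NBD HVT/LPEEP lungs, and 10.45, 10.96 and 12.82 in NBD LVT/OLPEEP lungs. Between BD and NBD under HVT/LPEEP it differed by 1.65 (SE 0.42, limma adjusted p = 0.0106). Its neighbour Ifit3 ran from 10.88 over a median of 12.16 to 12.70 in BD HVT/LPEEP lungs and from 10.33 over 10.75 to 11.57 in NBD HVT/LPEEP lungs (1.21, SE 0.304, limma adjusted p = 0.01). In both genes 5 of 6 BD rats lay above every NBD rat. Rsad2, the gene of viperin, averaged 12.11 ± 1.265 in BD HVT/LPEEP lungs and 10.23 ± 0.640 in NBD HVT/LPEEP lungs and had the largest difference of the 38 members (1.88, SE 0.576, limma adjusted p = 0.0314).

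The other 9 effectors were not called. Mx1 and Mx2, dynamin-like GTPases that trap viral particles, averaged 11.45 ± 1.222 and 11.07 ± 1.46 in BD HVT/LPEEP lungs and 10.14 ± 0.597 and 10.22 ± 0.904 in NBD HVT/LPEEP lungs. Their differences of 1.31 and 0.85 were large, but the spread between rats was larger than for most features (limma adjusted p = 0.116 and 0.402). Oasl, a member of the oligoadenylate synthetase family, differed by 1.11 (limma adjusted p = 0.052), Oas1a by 0.77 (0.202) and Cmpk2, a nucleotide kinase next to Rsad2, by 1.17 (0.0921). Bst2 (tetherin), Ifitm3, which blocks viral entry, and the exonuclease Isg20 differed by 0.27, 0.09 and 0.33. Ifit1 was dim, above 32.8% of features, and averaged 8.53 ± 0.340 in BD HVT/LPEEP lungs and 8.24 ± 0.317 in NBD HVT/LPEEP lungs. Mx, Oas, Ifit and Gbp genes have close paralogues whose RNA can bind the same probes, so the split between the members of a family is uncertain.

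In the ISG15 system, the modifier itself rose and its enzymes were not called. Isg15 averaged 12.27 ± 0.879 in BD HVT/LPEEP lungs, 11.06 ± 0.691 in BD LVT/OLPEEP lungs, 10.79 ± 0.594 in NBD HVT/LPEEP lungs and 10.82 ± 1.012 in NBD LVT/OLPEEP lungs, and differed between BD and NBD under HVT/LPEEP by 1.48 (SE 0.443, limma adjusted p = 0.028). Usp18, which removes ISG15 from proteins and damps the type I receptor, and Herc6, its ligase in rodents, differed by 1.16 and 0.84 (limma adjusted p = 0.117 and 0.2). Of the mono-ADP-ribosyltransferase group, which lies in 1 cluster on chromosome 11, 2 of 3 members rose. Parp14, the member named in the promoters above for holding both elements, had a lowest, median and highest value of 11.37, 12.33 and 12.96 in BD HVT/LPEEP lungs and of 10.71, 11.05 and 11.88 in NBD HVT/LPEEP lungs (1.09, SE 0.272, limma adjusted p = 0.00979), and 5 of 6 BD rats lay above every NBD rat. Parp9 rose 1.77-fold (limma adjusted p = 0.0318), while its ubiquitin ligase partner Dtx3l differed by 0.77 (0.0748).

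Both guanylate-binding proteins measured in the list rose. Gbp2 ran from 11.75 over a median of 12.82 to 13.42 in BD HVT/LPEEP lungs and from 10.87 over 11.51 to 12.35 in NBD HVT/LPEEP lungs (SE of the difference 0.324, 2.23-fold, limma adjusted p = 0.0193). Gbp5, which promotes inflammasome assembly, ran from 11.48 over 12.87 to 13.58 in BD HVT/LPEEP lungs and from 10.74 over 11.43 to 12.41 in NBD HVT/LPEEP lungs (1.25, SE 0.359, limma adjusted p = 0.0216). In both genes rat 37 was the only BD HVT/LPEEP rat not above every NBD HVT/LPEEP rat. Of the last 4 members, Rtp4 rose by 0.96 (limma adjusted p = 0.0386) and Ifi35, a leucine-zipper protein, by 0.54 (0.033). Ifi44 and Ifi27 differed by 0.76 and -0.14 and were not called.

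**Figure D2:**
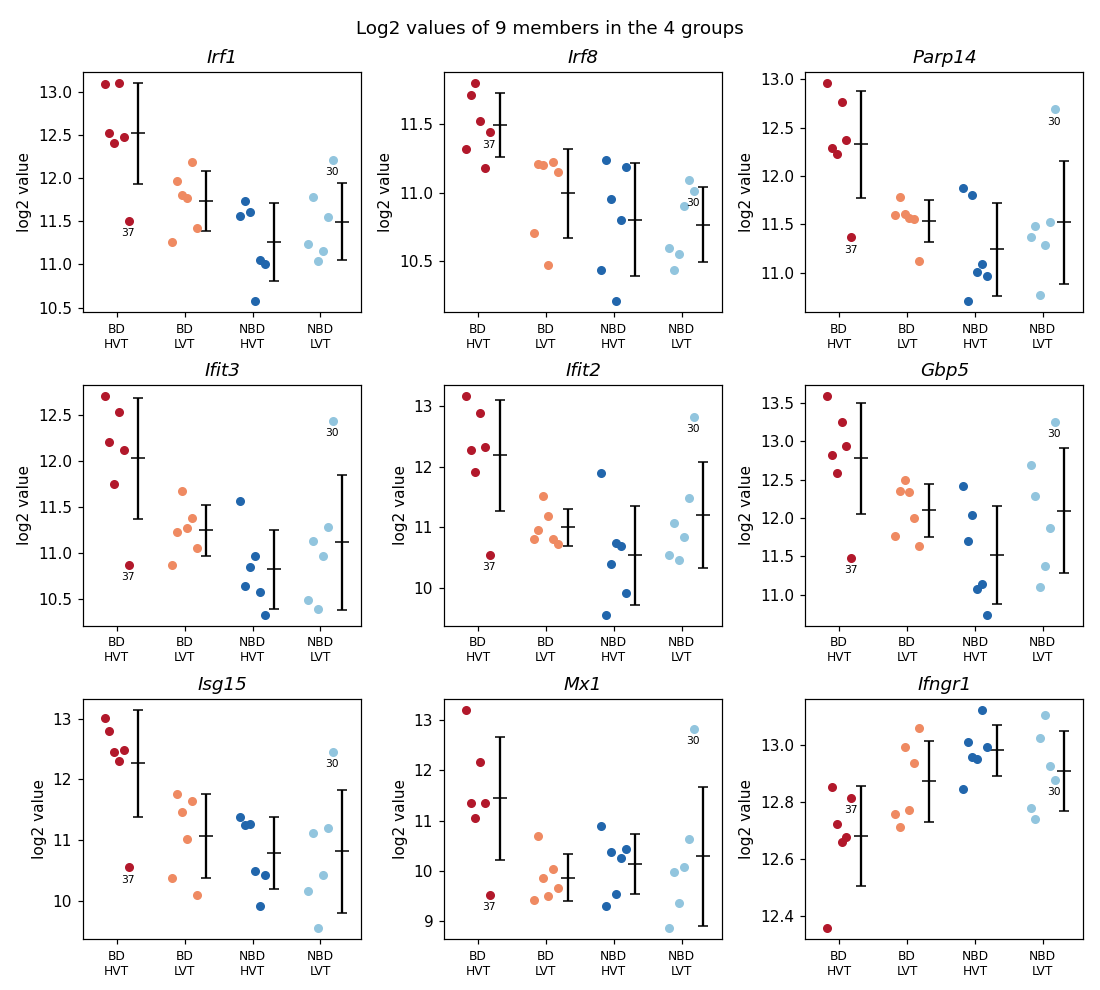
Log2 value (y axis) of 9 members in each rat, by group from left to right BD HVT/LPEEP, BD LVT/OLPEEP, NBD HVT/LPEEP and NBD LVT/OLPEEP, with the mean ± SD of 6 rats beside the points. BD HVT/LPEEP rat 37 and NBD LVT/OLPEEP rat 30 are numbered, and in Ifit2 they lie at 10.55 and 12.82.

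The ventilation setting within brain-damaged rats gave a shift of similar median size but few calls. Between BD HVT/LPEEP and BD LVT/OLPEEP lungs, 36 of 38 differences were positive, with a median of 0.795 against -0.0101 over all features. Only 2 members rose and none fell, a share of 5.26% beside 5.67% of all features called in either direction and 2.85% called higher, so the count of calls did not set the members apart. Ifi35 ran from 9.50 over a median of 9.97 to 10.39 in BD HVT/LPEEP lungs and from 9.05 over 9.39 to 9.55 in BD LVT/OLPEEP lungs (0.64, SE 0.167, limma adjusted p = 0.027). Zbp1 had a lowest, median and highest value of 9.53, 10.70 and 12.05 in BD HVT/LPEEP lungs and of 9.46, 9.58 and 10.03 in BD LVT/OLPEEP lungs (1.09, SE 0.325, limma adjusted p = 0.0498). In both genes 5 of 6 HVT/LPEEP rats lay above every LVT/OLPEEP rat. At an unadjusted p under 0.05, 26 members were higher and 1 (Ifngr1) was lower, against 9.98% and 11.0% of all features. Mx2 and Mx1 had the largest differences (1.73 and 1.58), with limma adjusted p of 0.1 and 0.0893.

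Without brain damage, no member was called between the ventilation settings. Between NBD HVT/LPEEP and NBD LVT/OLPEEP lungs, 0 of 38 were called by limma, as were 0% of all features, and 0 members passed an unadjusted p of 0.05, against 16.3% of all features. The median difference was -0.133, against 0.016 over all features, and 28 of 38 were negative, but without NBD LVT/OLPEEP rat 30 the median was 0.0653, so its direction rested on that rat. Under LVT/OLPEEP, BD and NBD lungs also gave 0 called members, beside 0.738% of all features, and 0 at an unadjusted p under 0.05, against 11.6%. Isg20 was the only member whose groups there did not overlap, at 10.83, 10.93 and 11.06 (lowest, median, highest) in BD LVT/OLPEEP lungs and 11.11, 11.20 and 11.91 in NBD LVT/OLPEEP lungs, which happens downward in 1.08% of all features. These comparisons share groups with those above, and NBD LVT/OLPEEP rat 30 enters both of them. Under LVT/OLPEEP the median difference between BD and NBD was -0.111, and without rat 30 it was 0.0985.

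The difference of the ventilation effect in BD from that in NBD was tested directly. It was positive in 36 of 38 members, with a median of 1.07 against -0.0241 over all features, but 0 members were called by limma, beside 0.0104% of all features, and the lowest adjusted p was 0.186 (Ifit2, 1.86, SE 0.594). At an unadjusted p under 0.05, 21 members were higher and 1 was lower, against 6.26% and 7.40% of all features. A larger effect of ventilation on these genes in BD than in NBD rats was therefore not called for any member at 6 rats per group.

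These genes also differed widely between rats of 1 group. The median within-group SD of the members was 0.558, against 0.157 over all features, and 28 of 38 members varied more than 90% of all features. Mx2, Rsad2 and Mx1 varied most, with within-group SDs of 1.13, 1.05 and 0.998. Ifnb1 and the receptor chains varied least, from 0.0689 in Ifnb1 to 0.177 in Ifngr2.

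The members varied together, so that single rats were high or low across the list. In the BD HVT/LPEEP group the mean deviation of a rat, over the 38 members and from the mean of each gene over 24 rats, was 1.32 in rat 11, 0.612 in rat 22, 0.375 in rat 24, 0.9 in rat 26, 0.545 in rat 28 and -0.487 in rat 37. Rat 37 was the lowest of its group in 29 of 38 members, against 17.1% of all features, and lay below the BD LVT/OLPEEP median in 33, against 53.6% of all features. For 22 members the other 5 rats all lay above every BD LVT/OLPEEP rat while rat 37 was the lowest of its group, a pattern seen in 1.47% of all features. For 18 members the same held against the NBD HVT/LPEEP rats, against 1.72% of all features. Rat 11 was at the other end, the highest of its group in 30 members, against 19.6% of all features.

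The NBD groups held a rat of the opposite kind. Rat 30 of NBD LVT/OLPEEP had a mean deviation of 1.03, second only to BD HVT/LPEEP rat 11, while the other 5 rats of its group lay between -0.615 and 0.0177. It was the highest of the 12 NBD rats in 31 members, against 8.24% of all features, and lay above the BD HVT/LPEEP median in 31, against 50.3%. Its median difference from the other 5 rats of its group was 1.39 over the 38 members. Over all features rat 30 correlated with its own group at 0.984, within the range of the other 5 rats. In NBD HVT/LPEEP, rat 10 was highest in 22 members, against 14.7% of all features, but reached a mean deviation of only 0.184. The BD LVT/OLPEEP rats lay closest together, between -0.496 and 0.0379.

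**Figure D3:**
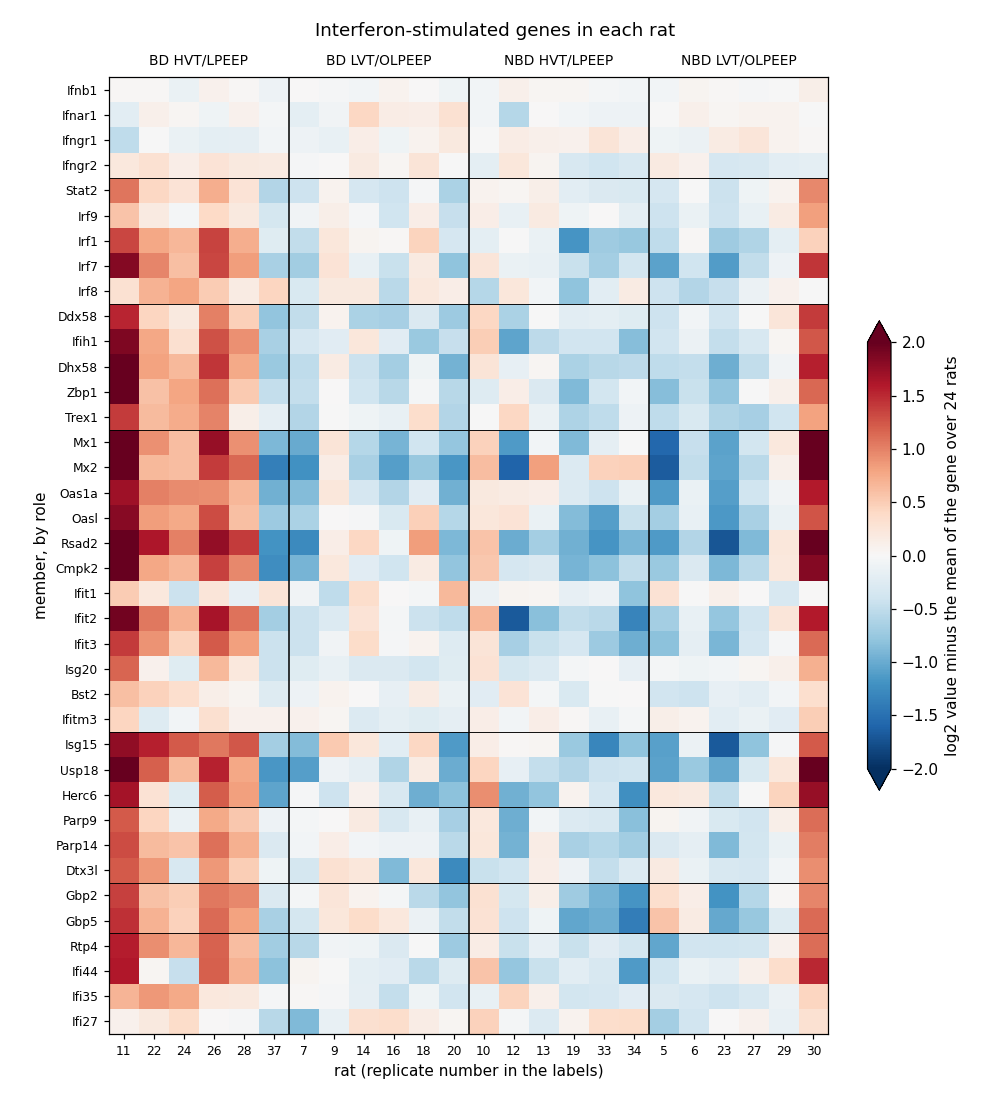
Deviation of each log2 value from the mean of the gene over 24 rats (colour, red above and blue below, saturating at 2 on either side) for 38 members (rows, by role) in 24 rats (columns, by group). Rat 37 forms a blue column among the red BD HVT/LPEEP rats and rat 30 a red column in NBD LVT/OLPEEP, with mean deviations of -0.487 and 1.03.

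The number of members called depended on single rats. Without rat 37, 23 members were called between BD HVT/LPEEP and BD LVT/OLPEEP (6.84% of all features) and 27 between BD and NBD under HVT/LPEEP (14.8%), in place of 2 and 17. Without rat 11 the counts fell to 0 and 7, with 3.87% and 11.6% of all features. Leaving out rat 30 gave 13 and 22, with 5.81% and 14% of all features. Rat 30 belongs to neither comparison and enters only through the shared estimate of the spread. For BD against NBD under HVT/LPEEP, counts also fell by over 1.5 times without BD HVT/LPEEP rat 22 (11) or 26 (10) and without NBD HVT/LPEEP rat 19 (11), 33 (11) or 34 (9). In the same order, the shares of all features called were 12.1%, 11.2%, 11.7%, 12% and 11%, below the 14.4% with all 24 rats. The calls of Irf1, Irf8, Ifit2, Ifit3, Parp14, Ifngr2 and Ifngr1 were kept in all 24 fits that left out 1 rat. The other 10 lost theirs in 2 to 15 of the 24 fits. Both calls between BD HVT/LPEEP and BD LVT/OLPEEP were lost in some, Zbp1 in 19 fits and Ifi35 in 5.

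**Figure D4:**
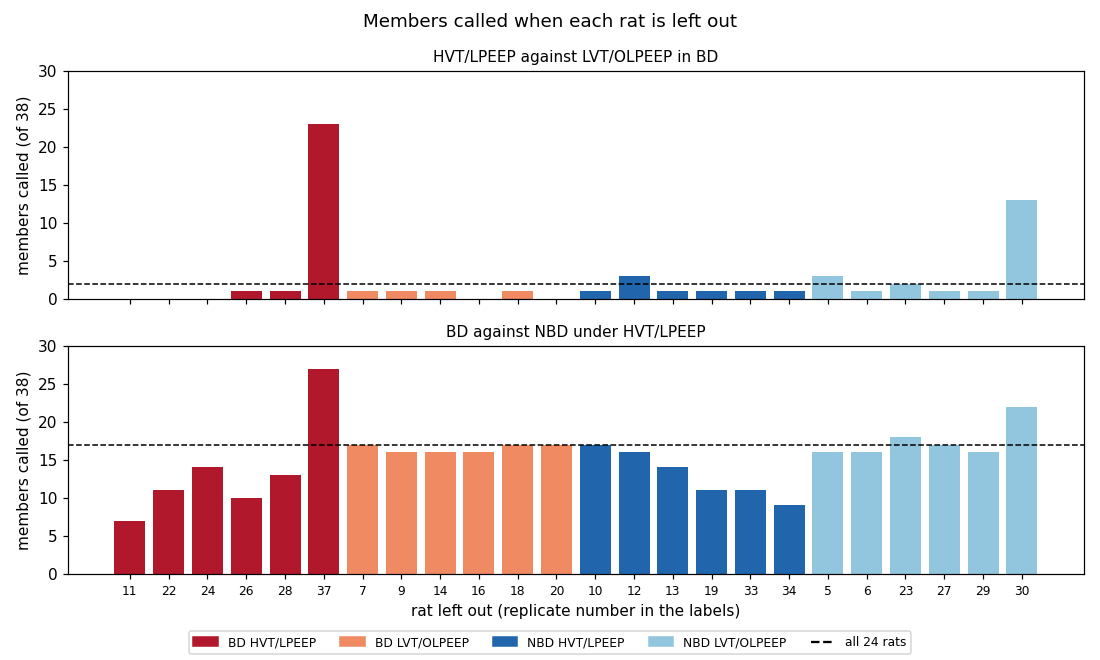
Number of the 38 members called (y axis) when the rat on the x axis is left out, between BD HVT/LPEEP and BD LVT/OLPEEP (top) and between BD and NBD under HVT/LPEEP (bottom). Bars are coloured by the group of the rat left out, the dashed line is the count with all 24 rats (2 and 17), and leaving out BD HVT/LPEEP rat 37 gave the highest counts (23 and 27).

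Genes of the pathway outside the list were read from a further 90 symbols, of which 66 were measured. Between BD and NBD under HVT/LPEEP, 20 of these rose and 3 fell, 34.8% of the 66 beside 14.4% of all features. Between BD HVT/LPEEP and BD LVT/OLPEEP 11 rose and none fell (16.7%, beside 5.67% of all features called and 2.85% called higher), and in the other 3 comparisons limma called 0. At an unadjusted p under 0.05, 2 were higher and 8 lower between NBD HVT/LPEEP and NBD LVT/OLPEEP, 4 higher and 4 lower between BD and NBD under LVT/OLPEEP, and 32 higher and 1 lower in the difference of the ventilation effects. Over all features the first pair of counts stands beside 16.3% in either direction and the second beside 11.6%, shares close to those of the 66 genes, and the last beside 6.26% higher and 7.40% lower. Ifng, the gene of interferon gamma, was dim, above only 18.8% of features. It lay at 7.97, 8.10 and 8.77 (lowest, median, highest) in BD HVT/LPEEP lungs, 7.54, 7.69 and 7.76 in BD LVT/OLPEEP lungs and 7.51, 7.63 and 7.81 in NBD HVT/LPEEP lungs. In NBD LVT/OLPEEP lungs its highest value of 7.969 almost reached the lowest of BD HVT/LPEEP, 7.972. Under HVT/LPEEP, Ifng of BD lay above NBD rats without overlap, a separation seen upward in 1.85% of all features. The differences were 0.60 (SE 0.118, limma adjusted p = 0.00623) against BD LVT/OLPEEP and 0.63 (adjusted p = 0.001) against NBD HVT/LPEEP.

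Of 17 other signalling genes, 4 rose and 2 fell in BD under HVT/LPEEP. Over all features, 5.90% were called higher and 8.50% lower there, and 2 falls among 17 genes are near the latter share. Jak2, the kinase bound to the interferon gamma receptor, averaged 12.38 ± 0.205 in BD HVT/LPEEP lungs, 11.66 ± 0.269 in BD LVT/OLPEEP lungs and 11.32 ± 0.329 in NBD HVT/LPEEP lungs, and BD lay above NBD rats without overlap under HVT/LPEEP (limma adjusted p = 8.51e-05). Irf8 and Jak2 also stand in a heat map that the study drew from these arrays, which makes them no independent choice. The genes that fell were Mavs, the mitochondrial adaptor of RIG-I and MDA5 (-0.46, limma adjusted p = 0.00633), and Irf3, the factor that acts after it (-0.41, 0.0434). Of 8 inhibitors of the pathway, 3 rose (Socs1, Socs3 and the phosphatase Ptpn2) and 1 (Pias3) fell, beside the same shares of all features. Socs1, the feedback inhibitor of JAK kinases, averaged 11.37 ± 0.464 in BD HVT/LPEEP lungs, 9.97 ± 0.447 in BD LVT/OLPEEP lungs and 10.11 ± 0.554 in NBD HVT/LPEEP lungs, and differed by 1.40 from BD LVT/OLPEEP (limma adjusted p = 0.00776).

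Of 16 other interferon gamma targets, 8 rose in BD against NBD under HVT/LPEEP, and of 25 other type I targets 5 rose. The share of all features called higher there was 5.90%. The type I targets included Slfn2 (0.77, limma adjusted p = 0.00101) and Samhd1, which depletes nucleotides needed by viruses (1.27, 0.00896), both without overlap between the groups. The gamma targets included Cd274, the ligand of PD-1 (1.56, limma adjusted p = 0.00291), and the chemokine Cxcl11 (2.45, 0.0058). Between BD HVT/LPEEP and BD LVT/OLPEEP, 4 of the 16 and 3 of the 25 rose, where 2.85% of all features were called higher. Among them were Cxcl9, a T cell chemokine (1.86, limma adjusted p = 0.00727), and Ube2l6, the enzyme that conjugates ISG15 (0.65, 0.0281).

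Some markers of blood cells also differed between groups. Between BD and NBD under HVT/LPEEP, 3 of 12 T and NK cell markers rose (Gzmb, Prf1 and Cd8a), as did 2 of 7 neutrophil markers (S100a8 and S100a9), 1 of 5 B cell markers (Ms4a1) and 1 of 6 markers of plasmacytoid dendritic cells (Tlr7). In the same comparison 3 of 7 epithelial, 1 of 4 endothelial and 2 of 7 monocyte and macrophage markers fell. Over all features, 5.90% were called higher and 8.50% lower there, and a list with 1 call rests on 1 gene. Tlr7 is also among the 66 pathway genes above, so its rise is counted in both lists. The mean deviation over the 12 T and NK cell markers was 0.234 ± 0.255 (-0.0814 to 0.584) in BD HVT/LPEEP lungs and -0.149 ± 0.239 (-0.489 to 0.209) in NBD HVT/LPEEP lungs (SD, n = 6 each), so the groups overlapped. Between BD HVT/LPEEP and BD LVT/OLPEEP, limma called none of the markers of any of these cell types. At an unadjusted p under 0.05, 1 of 12 T and NK cell markers and 1 of 6 plasmacytoid dendritic cell markers were higher there. Over all features 9.98% were higher, so the count of 1 in 12 T and NK cell markers is no more than the background. Of the epithelial markers 3 of 7 were lower, and of the endothelial markers 1 of 4, beside 11.0% of all features. All 7 epithelial and all 4 endothelial differences were negative. Rat 37 had a T and NK cell value of 0.13, within its group, and rat 30 one of -0.251. The part of these cells in the values of the interferon-stimulated genes was not tested.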

How the data were processed

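Total RNA of right lung was hybridised to Affymetrix rat arrays, 24 arrays in all. The authors deposited log2 values, quantile-normalised across arrays (every array held the same set of sorted values), with 1 feature per gene. Background correction and summarisation: not given in the sources used here. No detection calls were used. A dim gene is compressed on this scale, so its fold change is understated. The number of arrays limits the precision. Groups and replicate numbers came from the labels. limma (3.58.1, R 4.3.3) was fitted to the 4 group means over all 24 arrays with 20 residual degrees of freedom, with 5 contrasts and Benjamini-Hochberg adjustment over 19239 features. The methods of the study name a mixed-model ANOVA with Holm correction. The mixed model was not fitted, but Holm correction of the limma p was tried as an alternative. Others were cyclic loess, a filter on dim features, only the arrays compared, trend and robust fits, array weights, a 1.5-fold threshold, the animal number, single rats and pairs left out. The fit was tested on simulated data. Values by rat were given for members called in any contrast, at most 10 per contrast by smallest adjusted p. Exceptions, chosen after their values were seen, are Isg20, the members in the strip plots, and the values in the closing section. The members and all lists were chosen with earlier results of these data known. Promoters came from RefSeq (GRCr8).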

Additional observations from a re-analysis of the deposited data

Results flagged for a closer look

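In 13 of 152 sets of 6 values (38 members in 4 groups), 1 rat stood further from the other 5 than Dixon's limit for 6 samples (by the gap to the nearest rat over the range), and chance gives this in about 1 in 20 sets. Members vary together, so these are not 13 separate events. In NBD LVT/OLPEEP rat 30 the highest values were 12.49 for Stat2, 12.75 for Ddx58, 12.39 for Ifih1, 11.52 for Dhx58, 11.70 for Trex1, 11.91 for Isg20, 12.74 for Parp9 and 9.95 for Ifi35, while the next highest rats lay at 11.60, 11.59, 11.18, 9.90, 10.58, 11.30, 11.74 and 9.41. BD HVT/LPEEP rat 37 was lowest for Isg15, at 10.55, with the next rat at 12.29. BD LVT/OLPEEP rat 20 was lowest for Parp14, at 11.12, with the next at 11.55. In NBD HVT/LPEEP, rat 10 was highest for Rsad2 (11.50, next 10.24), rat 12 lowest for Ifnar1 (11.58, next 12.04) and rat 34 lowest for Ifit1 (7.62, next 8.26).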

How the results depend on the processing

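The count of members called between BD HVT/LPEEP and BD LVT/OLPEEP was 2. The share of all features called was 5.67%. The count became 7 without the 40% dimmest features, where 9.47% of the features kept were called. It became 12, of which 11 were higher, with the animal number as a covariate (11% of all features). It was 1 with only the 12 arrays compared (4.9%), with trend and robust fitting (5.04%) or with array weights (6.1%). Under Holm correction the count was 0 (0.156%). With single rats left out it ran from 0 to 23, the latter without BD HVT/LPEEP rat 37 (6.84% of all features). With each of 15 pairs of BD HVT/LPEEP rats left out, since 2 unnamed rats had died early, it ran from 0 to 26. Without NBD HVT/LPEEP rat 12 and BD LVT/OLPEEP rat 16 (left out jointly, added after seeing the data) it was 1 (7.4% of all features). Between BD and NBD under HVT/LPEEP the count was 17, beside 14.4% of all features. It became 11 with only the 12 arrays compared (9.96%) and 0 under Holm correction (0.936%). With single rats left out it ran from 7 (11.6%) to 27 (14.8%), and over the 15 pairs from 2 to 30. In the other settings it stayed between 14 with the 1.5-fold threshold (2.93%) and 21 without the 40% dimmest features (23.3% of those kept). The difference of ventilation effects gave 0 calls, but up to 4 over the 15 pairs. The remaining comparisons gave 0 calls in every setting run. No call changed direction, and the causes of these changes were not tested. No paired analysis was possible because each replicate number names a single animal and the groups share none.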
